A study of Mus musculus with 10 samples.

Results

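The genes described here are 10 genes of the Hippo pathway: the coactivator genes Yap1 and Wwtr1, the DNA-binding factor genes Tead1, Tead2, Tead3 and Tead4, the kinase genes Lats1 and Lats2, and the target genes Amotl2 and Ankrd1. They were taken by name, as the rows of the expression table whose gene symbol is one of these, and all 10 were found among 54343 genes. Expression was measured by RNA sequencing of polyA-selected, strand-specific libraries from cultured mouse tumour cells, 5 libraries of MC38.T4 and 5 of MC38. MC38.T4 is a derived line: MC38 cells were transfected with human mesothelin, a clone was expanded and implanted into C57/BL6 mice, the tumour was taken out after about 25 days and returned to culture for 10 generations, and a single clone with low mesothelin expression founded the line. MC38 is the parental line as bought, labelled wild type. MC38.T4 is therefore 1 clone, and effects of the transfection, of cloning, of growth in the mouse and of chance differences between clones cannot be told apart. The library names call the cells colon adenocarcinoma, whereas the tissue label calls them melanoma. None of 15 intestinal epithelial markers was expressed highly enough to be tested, Cdx2 was at 0 in every library, and the list summed to between 1.34 and 1.70 FPKM in MC38.T4 libraries and between 0.203 and 0.581 FPKM in MC38 libraries. Of 8 melanocyte markers Mitf alone was tested (1.74 ± 0.096 FPKM in MC38.T4 and 0.781 ± 0.14 FPKM in MC38). It was below 1 FPKM in every MC38 library, so it passed the filter through MC38.T4 alone. Pmel, not tested, went the other way (0.178 ± 0.014 FPKM in MC38.T4 and 0.522 ± 0.085 FPKM in MC38). Tyr and Slc45a2 were at 0 in every library. The melanocyte list summed to between 1.85 and 2.07 FPKM in MC38.T4 libraries and between 1.19 and 1.52 FPKM in MC38 libraries. Nothing in the labels tells whether each library had a culture of its own. The p-values therefore reflect only how far these 10 samples scatter, and that scatter may be technical.

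In the Hippo pathway the kinases STK3 and STK4, helped by the scaffold SAV1, activate the kinases LATS1 and LATS2 together with their MOB1 partners. LATS kinases phosphorylate YAP (from Yap1) and its relative TAZ (from Wwtr1), which keeps these coactivators in the cytoplasm and marks them for breakdown. When the kinases are inactive, YAP and TAZ enter the nucleus and bind TEAD factors, which carry them to genes for growth, adhesion and the cytoskeleton, among them Ankrd1, Ccn1, Amotl2 and Lats2. The products of Amotl2 and Lats2 also act back on the pathway as inhibitors. Because the pathway works through phosphorylation and protein location, mRNA levels report the abundance of its parts and of its target transcripts, not its activity.

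TEAD factors recognise the core motif GGAATG, which reads CATTCC on the opposite strand. The promoter windows of 3 target genes among the 10, of the coactivator pair and of Ccn1, a further well-known target gene, are shown because each holds this motif. They come from RefSeq on build GRCm38.p6, an older build than the GRCm39 named for the expression data, and are used for their letters only. Each window runs 5′ to 3′ on the gene's strand over 300 bases, 250 before and 50 after the annotated transcription start, in lower case with the motif in capitals.
Ankrd1, chr19:36119795-36120094, minus strand: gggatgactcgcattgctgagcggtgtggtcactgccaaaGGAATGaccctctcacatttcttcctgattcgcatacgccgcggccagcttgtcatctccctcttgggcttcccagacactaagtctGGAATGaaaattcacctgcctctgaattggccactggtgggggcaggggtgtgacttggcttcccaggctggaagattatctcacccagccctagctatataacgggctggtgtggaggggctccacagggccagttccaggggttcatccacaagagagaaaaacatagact
Amotl2, chr9:102717554-102717853, plus strand: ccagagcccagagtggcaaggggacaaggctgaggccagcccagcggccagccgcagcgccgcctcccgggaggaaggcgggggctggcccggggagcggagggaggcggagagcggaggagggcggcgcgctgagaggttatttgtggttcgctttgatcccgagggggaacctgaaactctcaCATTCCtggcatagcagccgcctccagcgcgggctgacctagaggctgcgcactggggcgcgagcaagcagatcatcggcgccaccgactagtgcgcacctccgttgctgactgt
Lats2, chr14:57746074-57746373, minus strand: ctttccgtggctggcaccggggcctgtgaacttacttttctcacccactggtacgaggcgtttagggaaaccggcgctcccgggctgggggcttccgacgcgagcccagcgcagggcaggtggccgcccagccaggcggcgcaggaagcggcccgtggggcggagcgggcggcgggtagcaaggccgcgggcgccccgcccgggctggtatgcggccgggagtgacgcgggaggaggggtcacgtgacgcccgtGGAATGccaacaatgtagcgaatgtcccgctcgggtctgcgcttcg
Wwtr1, chr3:57575861-57576160, minus strand: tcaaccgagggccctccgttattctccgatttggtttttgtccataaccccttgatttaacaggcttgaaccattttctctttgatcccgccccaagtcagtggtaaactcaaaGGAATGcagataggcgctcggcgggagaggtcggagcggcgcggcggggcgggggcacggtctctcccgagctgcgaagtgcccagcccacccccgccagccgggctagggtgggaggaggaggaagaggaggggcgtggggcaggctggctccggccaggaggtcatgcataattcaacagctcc
Yap1, chr9:8004547-8004846, minus strand: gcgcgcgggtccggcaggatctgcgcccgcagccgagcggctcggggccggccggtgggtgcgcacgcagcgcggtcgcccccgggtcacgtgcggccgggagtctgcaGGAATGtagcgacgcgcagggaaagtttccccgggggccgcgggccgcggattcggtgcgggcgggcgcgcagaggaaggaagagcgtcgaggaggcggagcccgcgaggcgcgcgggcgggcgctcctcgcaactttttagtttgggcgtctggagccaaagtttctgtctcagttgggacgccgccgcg
Ccn1, chr3:145649936-145650235, minus strand: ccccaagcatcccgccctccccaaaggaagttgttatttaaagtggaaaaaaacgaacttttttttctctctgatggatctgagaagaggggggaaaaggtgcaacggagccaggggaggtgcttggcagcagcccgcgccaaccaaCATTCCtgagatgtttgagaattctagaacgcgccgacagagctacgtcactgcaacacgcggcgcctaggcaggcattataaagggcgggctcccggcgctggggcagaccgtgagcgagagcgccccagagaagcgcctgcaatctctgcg

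Ankrd1 held the motif 2 times, starting at positions -210 and -123, where -1 is the base before the annotated start. Wwtr1 held it at -136 and Yap1 at -141, both on the gene strand, and Amotl2 at -65 on the opposite strand. In Lats2 it began 5 bases after the start. Of the 10 genes 8 had an entry in the promoter table, and 6 of these 8 held the motif in the first window listed for the gene, the sixth being Tead3 at -182. Tead2 and Lats1 had no match in this window, and Tead1 and Tead4 had no entry. Where more than 1 window was listed, the motif was in 1 of 2 for Lats2, 2 of 3 for Tead3 and 2 of 2 for Wwtr1. The match of Lats2 and that of Tead3 therefore depend on the window taken. Over all 27025 genes with a window, 14.6% of first windows held the motif on either strand. A match is a run of letters and not evidence of binding.

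**Figure D1:**
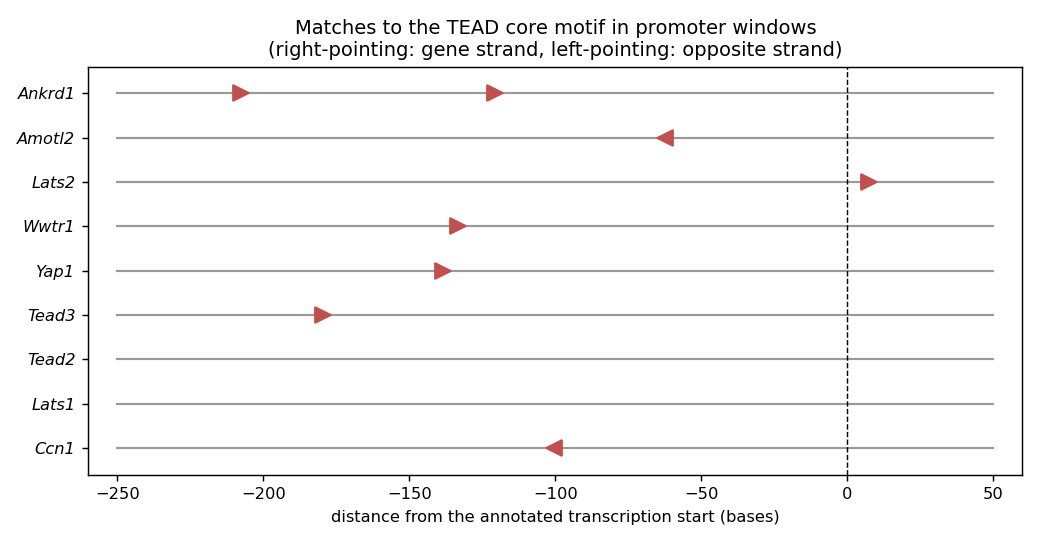
Positions of GGAATG (right-pointing) and CATTCC (left-pointing) along the promoter windows of 8 Hippo pathway genes and Ccn1, in bases from the annotated transcription start (dashed line). Ankrd1 holds the motif 2 times, Tead2 and Lats1 have no match, and the match of Lats2 lies just after the start.

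The authors' values are FPKM, a fragment count corrected for the length of the gene and the size of the library, so levels of different genes can be set side by side. Changes are differences of log2(FPKM + 1), MC38.T4 minus MC38, from limma across the 11110 genes that reached an FPKM of 1 in at least 5 of 10 libraries, with p-values adjusted over all of these genes and a threshold of 0.05. FPKM summed to between 478019 and 484460 in MC38.T4 libraries and between 442183 and 477015 in MC38 libraries. The sums of the lines did not overlap, and MC38 replicate 1 had the lowest. The sources used here give no read totals, so no counting error could be attached to a value, and the spacing of the lowest values gave depths from 0.874 to 1.14 relative to MC38 replicate 1. An earlier analysis of these data found that MC38.T4 replicate 4 and MC38 replicate 1 stand apart. MC38.T4 replicate 4 was the highest library of its line for 6 of the 10 genes and the lowest for 1, and MC38 replicate 1 was the highest of its line for 6 and the lowest for 3. Results are therefore also given without these 2 libraries.

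All 10 genes had an FPKM of at least 1 in every library and all 10 passed the test, 4 higher and 6 lower in MC38.T4. This count says little about the Hippo genes, since 86.0% of all tested genes passed, 43.1% higher and 42.9% lower. The values of the lines did not overlap for 9 of the 10 genes, against 77.4% of tested genes, and 1 of the 10 (Lats1) changed by at least 2-fold on the log2(FPKM + 1) scale, against 17.2%. The median size of the log2 change was 0.78 over the 10 genes and 0.47 over all tested genes, where the median SD between libraries of 1 line was 0.07. The signed median was -0.21 over the 10 genes and 0.00077 over all tested genes. Lats1 changed more than 88.9% of tested genes, Tead1 more than 81.5% and Lats2 more than 79.4%, while Tead2 and Amotl2 changed more than 20.3% and 20.6%. Without MC38.T4 replicate 4 and MC38 replicate 1 all 10 genes again passed with the same directions.

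**Figure D2:**
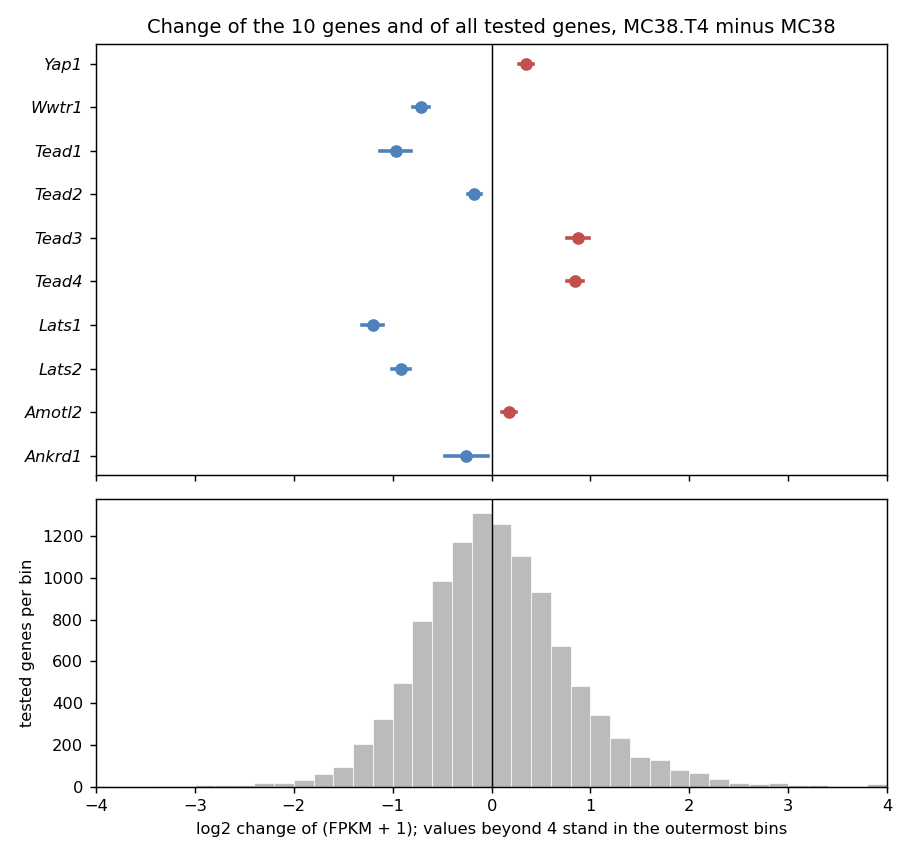
Upper panel: log2 change of (FPKM + 1), MC38.T4 minus MC38, for the 10 genes with 95% confidence intervals from limma. Lower panel: the same change for all 11110 tested genes, binned, with values beyond 4 placed in the outermost bins. Lats1, Tead1 and Lats2 lie farthest to the left, and Tead3 and Tead4 farthest to the right.

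The coactivator genes went in opposite directions. Yap1 was measured at 43.7, 44.3, 43.5, 41.2 and 42.7 FPKM in the MC38.T4 libraries, against 35.0, 33.1, 33.2, 33.7 and 33.3 FPKM in the MC38 libraries. Every MC38.T4 library was above every MC38 library, and the log2 change was 0.35 (SE 0.03, limma adjusted p = 5.47e-08). Wwtr1, which encodes TAZ, was measured at 56.7, 57.4, 58.6, 63.8 and 58.0 FPKM in MC38.T4, against 102, 96.4, 94.3, 101 and 92.7 FPKM in MC38. Here every MC38.T4 library was below every MC38 library, replicate 4 being the highest of the MC38.T4 libraries, and the log2 change was -0.71 (SE 0.04, limma adjusted p = 1.39e-10). Wwtr1 was the more abundant transcript of the pair in all 10 libraries.

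Because the coactivator genes went in opposite directions, the balance between them necessarily shifted further than either gene alone. Yap1 made up 42.3% ± 1.8 of the summed FPKM of the pair in MC38.T4 and 25.7% ± 0.51 in MC38 (SD, n = 5 each). Its ratio to Wwtr1 lay between 0.646 and 0.772 in MC38.T4 libraries and between 0.335 and 0.359 in MC38 libraries. A ratio within a library hardly depends on how libraries are scaled. On the log2 scale it averaged -0.45 ± 0.10 in MC38.T4 and -1.53 ± 0.04 in MC38, a difference of 1.08 (exact permutation test, two-sided, p = 0.00794, adjusted p = 0.0119 over 3 ratios). This p of 0.00794 is the smallest that 5 libraries against 5 can give. Since every MC38.T4 library was higher for Yap1 and lower for Wwtr1, the ratio had to separate the lines. Its p-value therefore adds no support beyond the results of each gene. The lowest ratio of the MC38.T4 libraries was that of replicate 4, and without the 2 libraries that stand apart the difference was 1.12. The summed FPKM of both genes was 102 ± 1.9 in MC38.T4 and 131 ± 4.6 in MC38, with no overlap between the lines.

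**Figure D3:**
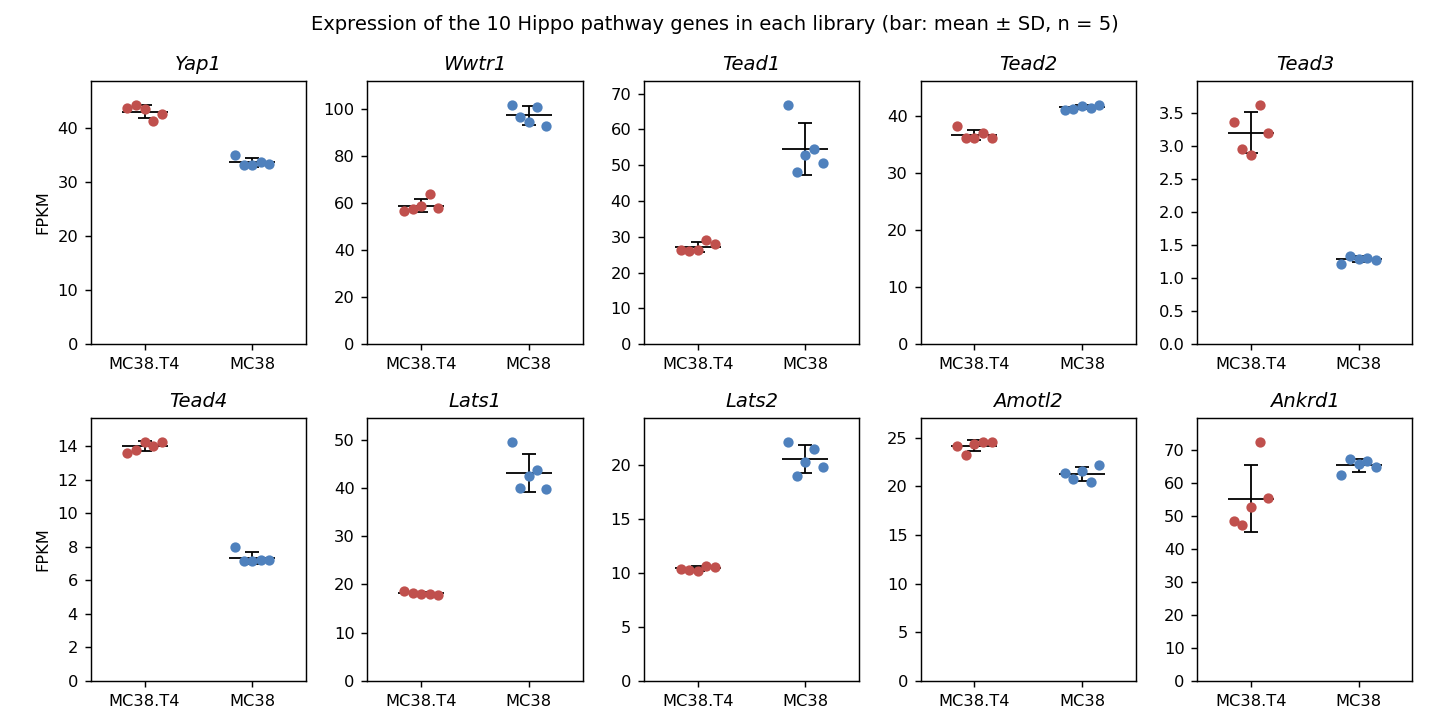
FPKM of the 10 genes in each library, 5 MC38.T4 libraries (red) left of 5 MC38 libraries (blue) in each panel, with mean and SD as black bars and every vertical axis starting at 0. The lines overlap only for Ankrd1, where MC38.T4 replicate 4 stands at 72.5 FPKM.

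Among the TEAD factor genes Tead1 fell and Tead3 and Tead4 rose, while Tead2 differed little. Tead1, which encodes a broadly expressed TEAD known from muscle and heart, was measured at 26.3, 26.2, 26.3, 29.2 and 28.0 FPKM in MC38.T4, against 66.8, 48.1, 52.7, 54.4 and 50.6 FPKM in MC38. The lines did not overlap, and MC38 replicate 1 was the highest library. The log2 change was -0.97 (SE 0.07, limma adjusted p = 1.42e-08), and -0.92 without the 2 libraries that stand apart. Tead2, known from the early embryo and neural progenitors, was measured at 38.2, 36.2, 36.2, 37.0 and 36.1 FPKM in MC38.T4, against 41.1, 41.3, 41.9, 41.5 and 42.0 FPKM in MC38. Its 5 MC38.T4 values all lay below its MC38 values, but the log2 change was only -0.17 (SE 0.03, limma adjusted p = 5.07e-05).

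Tead4, which is needed for the trophectoderm of the early mouse embryo, was measured at 13.6, 13.8, 14.3, 14.0 and 14.3 FPKM in MC38.T4, against 7.97, 7.17, 7.12, 7.23 and 7.19 FPKM in MC38. All MC38.T4 libraries were above all MC38 libraries, with a log2 change of 0.85 (SE 0.04, limma adjusted p = 1.14e-11). Tead3, known from placenta, was the least expressed of the 10 genes in both lines, at 3.37, 2.97, 2.87, 3.63 and 3.20 FPKM in MC38.T4, against 1.21, 1.34, 1.29, 1.31 and 1.28 FPKM in MC38. The lines did not overlap, and the log2 change was 0.88 (SE 0.05, limma adjusted p = 3.83e-10). Added to each value, a pseudocount of 1 understates a change at this level: with a pseudocount of 0.1 it was 1.25, and the ratio of the mean FPKM values was 2.49.

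The make-up of the TEAD transcripts therefore differed between the lines. Tead1 took 33.5% ± 1.0 of the summed FPKM of the 4 TEAD genes in MC38.T4 and 51.9% ± 3.1 in MC38 (SD, n = 5 each). Tead2 took 45.3% ± 1.1 in MC38.T4 and 39.8% ± 2.8 in MC38, Tead4 took 17.2% ± 0.53 in MC38.T4 and 7.02% ± 0.20 in MC38, and Tead3 took 3.95% ± 0.29 in MC38.T4 and 1.24% ± 0.12 in MC38. The most abundant TEAD transcript was thus Tead2 in all MC38.T4 libraries and Tead1 in all MC38 libraries, and for each of the 4 genes the shares of the lines did not overlap. The sum itself was 81.1 ± 1.9 FPKM in MC38.T4 and 105 ± 7.4 FPKM in MC38, and it was highest in MC38 replicate 1 (117 FPKM). In bulk RNA, fewer cells that express a gene and less RNA per cell cannot be told apart.

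**Figure D4:**
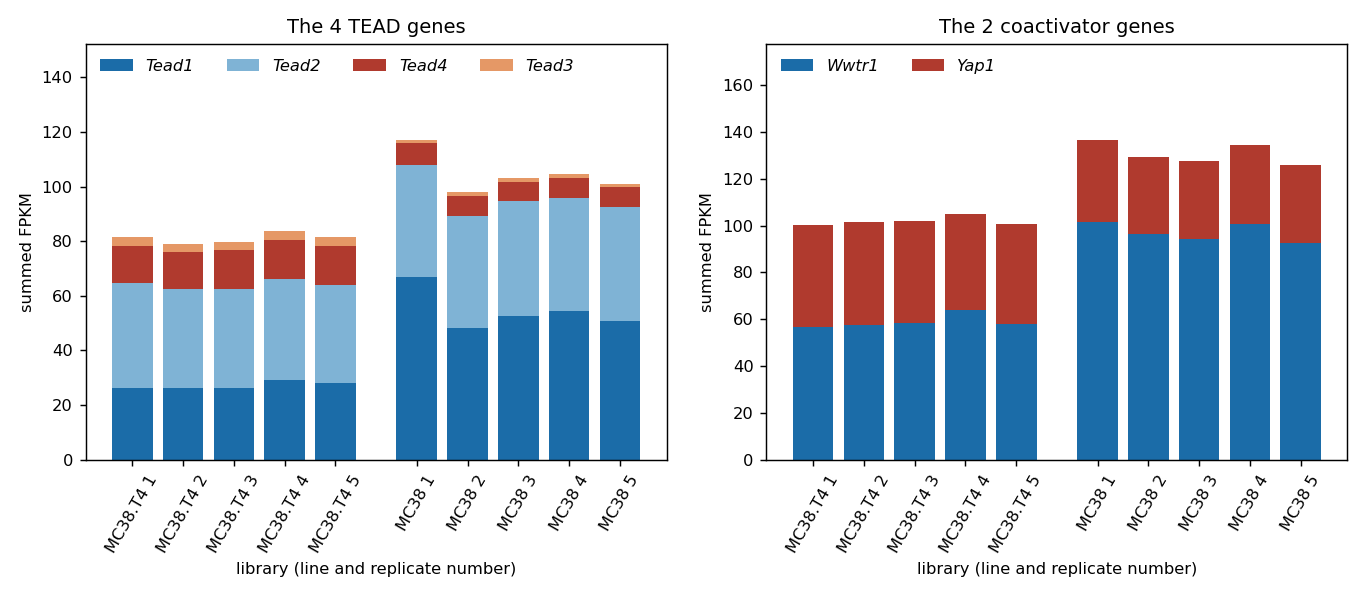
Stacked FPKM of the 4 TEAD genes (left panel) and of Wwtr1 and Yap1 (right panel) in each library, MC38.T4 left of MC38, with line and replicate number on the horizontal axis. Tead1 (dark blue) is the largest block in the MC38 libraries and Tead2 (light blue) in the MC38.T4 libraries, and Yap1 takes 42.3% of the coactivator sum in MC38.T4 and 25.7% in MC38.

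Both LATS kinase genes fell. Lats1 was measured at 18.6, 18.2, 18.0, 18.0 and 17.9 FPKM in MC38.T4, against 49.6, 40.0, 42.5, 43.8 and 39.8 FPKM in MC38. The lines did not overlap, and the log2 change of -1.20 (SE 0.05, limma adjusted p = 6.03e-12) was the largest of the 10 genes. Lats2, itself a target gene of YAP and TAZ, was measured at 10.4, 10.3, 10.2, 10.7 and 10.6 FPKM in MC38.T4, against 22.2, 19.0, 20.3, 21.5 and 19.9 FPKM in MC38. It was lower in all MC38.T4 libraries, with a log2 change of -0.91 (SE 0.04, limma adjusted p = 1.43e-11). MC38 replicate 1 was the highest library for both genes, and without the 2 libraries that stand apart the changes were -1.15 for Lats1 and -0.89 for Lats2.

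The kinase pair summed to 28.6 ± 0.28 FPKM in MC38.T4 and 63.7 ± 5.2 FPKM in MC38. Lats1 fell further than Lats2. The log2 ratio of Lats2 to Lats1 averaged -0.79 ± 0.04 in MC38.T4 and -1.06 ± 0.06 in MC38, a difference of 0.27 with no overlap (exact permutation test, two-sided, p = 0.00794, adjusted p = 0.0119 over 3 ratios, n = 5 each). Lats1 remained the more abundant transcript in every library.

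Of the target genes, Amotl2 and Ankrd1 changed less than Lats2 and in opposite directions. Amotl2, which encodes an angiomotin-like protein that binds YAP and holds it at junctions, was measured at 24.1, 23.2, 24.3, 24.6 and 24.6 FPKM in MC38.T4, against 21.4, 20.8, 21.6, 20.4 and 22.2 FPKM in MC38. The lines did not overlap, but the log2 change was only 0.18 (SE 0.03, limma adjusted p = 0.000157). Ankrd1, which encodes an ankyrin repeat protein induced in stretched muscle and used as a readout of YAP and TAZ, was measured at 48.5, 47.1, 52.6, 72.5 and 55.5 FPKM in MC38.T4, against 62.3, 67.3, 65.7, 66.7 and 64.7 FPKM in MC38. Of the MC38.T4 libraries 4 lay below every MC38 library, and replicate 4 lay above all of them.

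The fall of Ankrd1 depended on the analysis, unlike the other 9 changes. Its log2 change was -0.25 (SE 0.10, limma adjusted p = 0.0301; exact permutation test, two-sided, p = 0.0476), and it missed the threshold in 10 of 20 alternative analyses, up to an adjusted p of 0.168 with an exact rank-sum test. Without MC38.T4 replicate 4 the change was -0.36 (limma adjusted p = 7.08e-06). Leaving out MC38 replicate 1, 2, 3 or 4, or MC38.T4 replicate 1, 2 or 3, each in turn, gave changes between -0.20 and -0.27 that no longer passed (adjusted p from 0.0514 to 0.0669). The log2 ratio of Ankrd1 to Amotl2 averaged 1.17 ± 0.23 in MC38.T4 and 1.61 ± 0.08 in MC38, a difference of -0.44 with an overlap through MC38.T4 replicate 4 (exact permutation test, two-sided, p = 0.0238, adjusted p = 0.0238 over 3 ratios, n = 5 each).

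Ordered by mean level, the 10 genes ran Wwtr1, Ankrd1, Yap1, Tead2, Tead1, Amotl2, Lats1, Tead4, Lats2 and Tead3 in MC38.T4, and Wwtr1, Ankrd1, Tead1, Lats1, Tead2, Yap1, Amotl2, Lats2, Tead4 and Tead3 in MC38. Neighbours whose library values overlapped were Wwtr1 and Ankrd1 in MC38.T4. In MC38 they were Ankrd1 and Tead1, Tead1 and Lats1, Lats1 and Tead2, and Amotl2 and Lats2. Yap1 thus stood at rank 3 in MC38.T4 and at rank 6 in MC38, and Lats1 at rank 7 in MC38.T4 and at rank 4 in MC38.

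Upstream of LATS, related genes of 1 step differed in direction in the pairs Stk3 and Stk4 and Mob1a and Mob1b. Stk4 fell, at 15.7 ± 0.52 FPKM in MC38.T4 and 33.8 ± 2.3 FPKM in MC38 (log2 change -1.05, SE 0.04, limma adjusted p = 6.18e-12), while its close relative Stk3 rose slightly, at 30.4 ± 0.90 FPKM in MC38.T4 and 26.2 ± 1.3 FPKM in MC38. The LATS activator gene Mob1b fell, at 19.4 ± 1.4 FPKM in MC38.T4 and 33.2 ± 6.0 FPKM in MC38, while Mob1a rose, at 76.6 ± 2.4 FPKM in MC38.T4 and 49.9 ± 4.6 FPKM in MC38. How reads shared by close relatives such as this pair were handled is not given. Sav1, the scaffold of the STK kinases, rose to 51.9 ± 2.2 FPKM in MC38.T4, against 42.5 ± 0.96 FPKM in MC38. Nf2, which encodes the membrane-linked activator merlin, stood at 37.3 ± 0.58 FPKM in MC38.T4 and 38.1 ± 1.4 FPKM in MC38 and did not pass (log2 difference -0.03, 95% interval -0.10 to 0.04, limma adjusted p = 0.426).

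Of 34 kinases, scaffolds and regulators of the pathway 30 were tested, of which 14 rose, 10 fell and 6 did not pass, where 86.0% of all tested genes passed, 43.1% higher and 42.9% lower. Among the 10 falls, Wwc1 was below 1 FPKM in every MC38.T4 library (0.522 to 0.692 FPKM) and passed the filter through MC38 alone. Once tested, Wwc1 could only be lower in MC38.T4. The median log2 change of these 30 genes was 0.0044 and the median size 0.49, close to 0.47 over all tested genes. The deepest falls were those of Rassf1, a tumour suppressor gene whose product binds the STK kinases (32.5 ± 0.89 FPKM in MC38.T4 and 99.9 ± 4.0 FPKM in MC38), and of Ajuba, whose LIM-domain product restrains LATS (12.9 ± 0.47 FPKM in MC38.T4 and 33.6 ± 1.1 FPKM in MC38). The log2 change was -1.59 for Rassf1 and -1.31 for Ajuba. The 34 genes held 5 of the STRIPAK phosphatase complex, which holds the STK kinases inactive. Of these 5 genes 4 rose, none fell and Strn4 did not pass, beside 43.1% of all tested genes that rose and 86.0% that passed either way. Among them were Slmap (45.1 ± 2.3 FPKM in MC38.T4 and 22.4 ± 1.6 FPKM in MC38) and Strn (8.46 ± 0.25 FPKM in MC38.T4 and 4.45 ± 0.83 FPKM in MC38). The 34 genes also held 8 for MAP4K and TAO kinases, which can act on LATS beside the STK kinases. Of the 7 tested among these 8, 4 rose and 3 did not pass, a smaller share passing than the 86.0% of all tested genes. Map4k2 led them at 15.7 ± 0.67 FPKM in MC38.T4 and 7.66 ± 0.60 FPKM in MC38, and Mink1 stood at 21.0 ± 1.2 FPKM in MC38.T4 and 12.0 ± 0.31 FPKM in MC38. The 4 genes below the filter were Tnik, Fat4, Dchs1 and Rassf2.

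**Figure D5:**
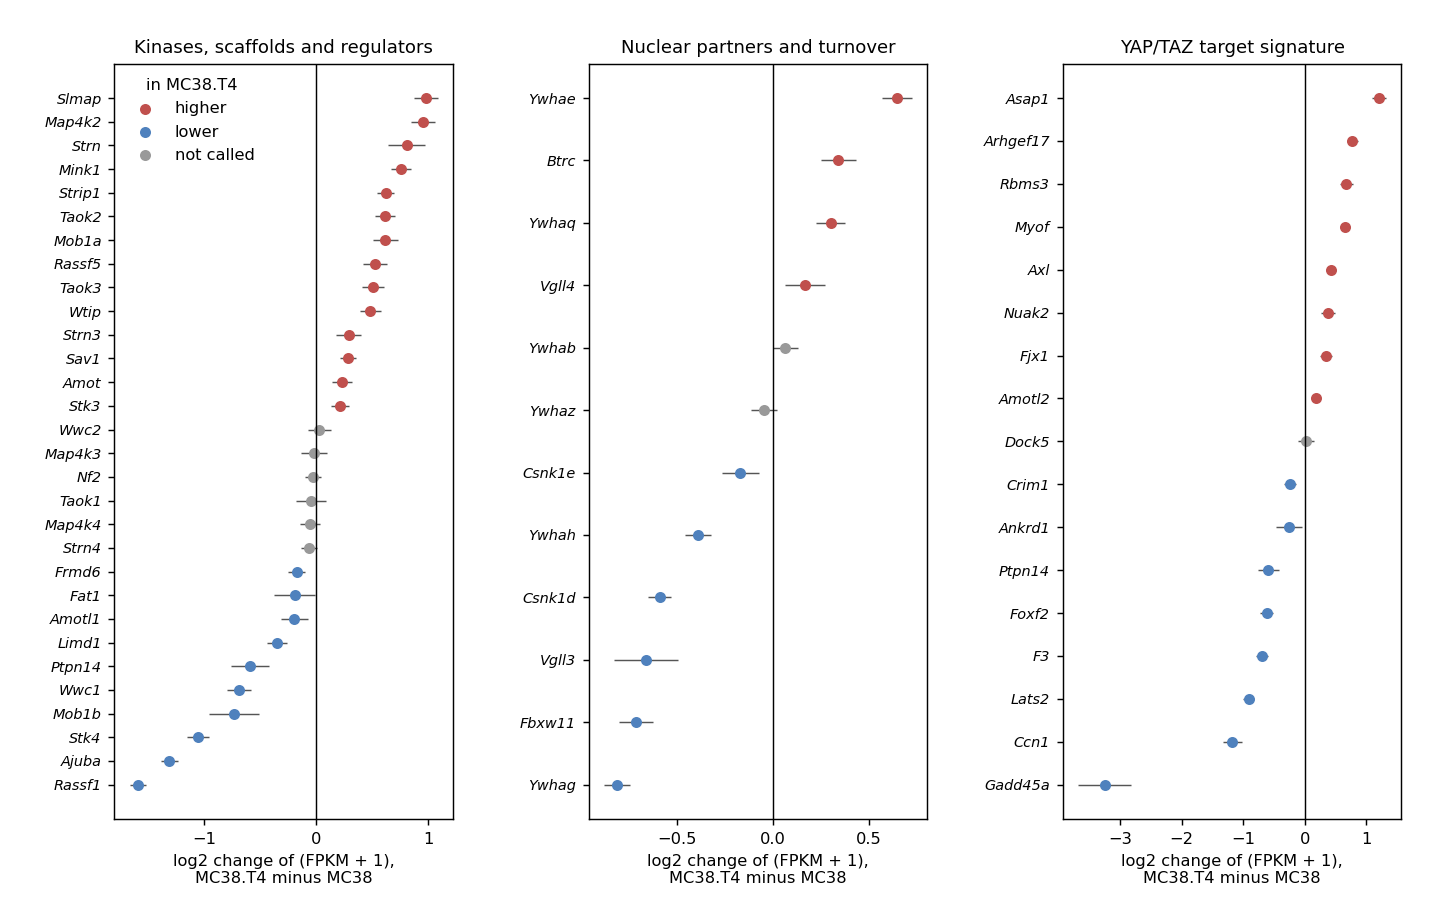
Log2 change of (FPKM + 1), MC38.T4 minus MC38, with 95% confidence intervals, for the tested genes of 3 lists: 30 kinases, scaffolds and regulators, 12 nuclear partners and turnover genes, and 17 genes of the YAP/TAZ target signature. Red points passed the test as higher in MC38.T4, blue points as lower and grey points did not pass; each list spreads to both sides of 0, and Gadd45a lies farthest out at -3.25.

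Of 14 genes for nuclear partners and for the turnover of YAP and TAZ 12 were tested, of which 4 rose, 6 fell and 2 did not pass, with a median log2 change of -0.11. A similar share of all tested genes passed (86.0%). Vgll1 and Vgll2 were listed at 0 in every library. Vgll3, whose product binds TEADs, fell, at 14.9 ± 0.80 FPKM in MC38.T4 and 24.3 ± 3.6 FPKM in MC38. Vgll4, whose product competes with YAP for TEADs, rose slightly, at 12.9 ± 0.75 FPKM in MC38.T4 and 11.4 ± 0.74 FPKM in MC38, with overlapping libraries (log2 change 0.17, SE 0.05, limma adjusted p = 0.00481). Rescaled to TPM, the difference no longer passed (adjusted p = 0.0615). The genes for the ubiquitin ligase receptors that recognise phosphorylated YAP and TAZ parted: Btrc stood at 16.6 ± 0.44 FPKM in MC38.T4 and 12.9 ± 0.79 FPKM in MC38, and Fbxw11 at 39.9 ± 1.1 FPKM in MC38.T4 and 66.0 ± 4.1 FPKM in MC38. The casein kinase gene Csnk1d, whose product helps to mark YAP for breakdown, fell to 62.9 ± 0.83 FPKM in MC38.T4, against 95.1 ± 1.8 FPKM in MC38. Of the genes for the YWHA adaptors that hold phosphorylated YAP in the cytoplasm, Ywhae rose to 338 ± 14 FPKM in MC38.T4, against 215 ± 5.5 FPKM in MC38. Ywhaq likewise stood at 456 ± 18 FPKM in MC38.T4 and 369 ± 9.1 FPKM in MC38. Ywhag fell to 159 ± 4.2 FPKM in MC38.T4, against 280 ± 6.5 FPKM in MC38. Of the 6 YWHA genes listed, all tested, 2 rose, 2 fell and 2 did not pass, beside 86.0% of all tested genes that passed.

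A published signature of 22 YAP and TAZ targets, drawn from human tumours and read here by mouse symbol, held 17 tested genes, of which 8 rose, 8 fell and 1 did not pass, with a median log2 change of 0.02. All tested genes were split as evenly, 43.1% higher and 42.9% lower. It includes Ptpn14, which also counts among the regulators above. Without Amotl2, Lats2 and Ankrd1, 14 were tested, of which 7 rose and 6 fell. Ccn1, which encodes a secreted matrix-associated protein, fell to 24.9 ± 2.8 FPKM in MC38.T4, against 57.3 ± 4.8 FPKM in MC38 (log2 change -1.17, SE 0.07, limma adjusted p = 2.58e-09). Its relative Ccn2, the other classical readout, lay near 0 at 0.0534 ± 0.029 FPKM in MC38.T4 and 0.0440 ± 0.031 FPKM in MC38 and was not tested. F3, which encodes tissue factor, fell to 19.6 ± 1.1 FPKM in MC38.T4, against 32.4 ± 1.8 FPKM in MC38. Gadd45a, a stress gene that responds to many other signals, had the largest change of the signature, at 38.1 ± 13 FPKM in MC38.T4 and 356 ± 13 FPKM in MC38.

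Rises in the signature were led by Asap1, which encodes a regulator of ARF GTPases and of focal adhesions, at 71.0 ± 3.3 FPKM in MC38.T4 and 30.3 ± 2.6 FPKM in MC38 (log2 change 1.21, SE 0.05, limma adjusted p = 7.99e-12). The membrane repair gene Myof stood at 86.5 ± 3.9 FPKM in MC38.T4 and 54.5 ± 2.1 FPKM in MC38. The RNA-binding protein gene Rbms3 stood at 1.74 ± 0.11 FPKM in MC38.T4 and 0.719 ± 0.093 FPKM in MC38. Rbms3 was below 1 FPKM in every MC38 library and passed the filter through MC38.T4 alone. Its direction among the rises was therefore fixed by the filter. The 5 genes below the filter were Ccn2, Igfbp3, Ccdc80, Nt5e and Tgfb2, of which Igfbp3 was listed at 0 in every library.

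Markers of other cell types were low, apart from some that fibroblasts and pericytes share with other mesenchymal cells. Of 10 such markers 4 were tested and all 4 were higher in MC38.T4 (Pdgfra, Pdgfrb, Dcn and Acta2). Pdgfrb and Acta2 stayed below 1 FPKM in every MC38 library. They passed the filter through MC38.T4 alone, so once tested they could only be higher there. Pdgfrb averaged 19.2 FPKM in MC38.T4 and 0.191 FPKM in MC38, Dcn 58.1 FPKM in MC38.T4 and 16.8 FPKM in MC38, Pdgfra 24.5 FPKM in MC38.T4 and 12.4 FPKM in MC38, and Acta2 2.77 FPKM in MC38.T4 and 0.0445 FPKM in MC38. The list summed to between 101 and 111 FPKM in MC38.T4 libraries and between 28.1 and 31.6 FPKM in MC38 libraries. Thy1 was at 0 in every library, and Fap averaged 0.00488 FPKM in MC38.T4 and 0.0299 FPKM in MC38. The part of these genes in the results above was not tested. None of 8 leukocyte markers and none of 6 endothelial markers was tested: the leukocyte list summed to at most 0.367 FPKM in MC38.T4 libraries and 1.04 FPKM in MC38 libraries, and the endothelial list to at most 0.634 FPKM in MC38.T4 libraries and 0.122 FPKM in MC38 libraries. The highest of them were Lyz2, at 0.237 FPKM in MC38.T4 and 0.805 FPKM in MC38, and Pecam1, at 0.529 FPKM in MC38.T4 and 0.0404 FPKM in MC38. The leukocyte genes Cd3e, Adgre1 and Ncr1 and the endothelial genes Emcn and Cldn5 were at 0 in every library, and the highest intestinal marker, Cdh1, averaged 1.00 FPKM in MC38.T4 and 0.0212 FPKM in MC38.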

How the data were processed

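Libraries of polyA-selected RNA, 5 of MC38.T4 and 5 of MC38, were prepared with the TruSeq stranded mRNA chemistry, per the labels' protocols. The authors deposited 1 table of FPKM, with 1 column per library, matched to samples by library name. The submitters' processing notes name the build GRCm39 and DESeq2, with no role or version. For the aligner, counter, annotation and filters: not given in the sources used here. FPKM divides by library total, so a few strongly expressed genes can lower all others.

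The 11110 of 54343 genes that reached FPKM 1 in 5 or more libraries were tested on log2(FPKM + 1) with limma 3.58.1 in R 4.3.3 (trend and robust moderation, group term only, two-sided, Benjamini-Hochberg adjustment over all tested genes, threshold 0.05). Ratios of 2 genes used log2(FPKM + 0.1) and an exact two-sided permutation test (252 arrangements). Tables and figures used Python 3.11.15. Promoter windows came from RefSeq (GRCm38.p6). In GENCODE annotation of that older build, exons of Lats2, Tead2 and Yap1 overlap those of Gm49361, Cd37 and Gm20416, all below an average of 0.3 FPKM in both lines, and whether counting used strand is not given.

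The 10 genes and the lists were chosen with earlier results of these data known. Named genes are the 10, Stk3, Stk4, Sav1, Mob1a, Mob1b, Nf2, Vgll4, Ccn1 and Ccn2, and of each list at most 4 rises and 4 falls, the largest among genes that passed without overlap, plus tested cell type markers. Genes outside this rule are named only where below the filter, where they did not pass, where a limit of a count is given or where single markers are given. As alternatives the filter was dropped or raised to FPKM 5, the pseudocount set to 0.1, and values rescaled to TPM, quantile-normalized or shifted to equal medians; further ones were plain eBayes, the replicate number as a block, an exact rank-sum test, and leaving out each library in turn or the 2 that stand apart. For TEAD shares, the last 2 were chosen after seeing the data. Tests for counts were not run, as the table holds none. Human mesothelin was not analysed here. A target signature gene that the naming rule selects among the rises is not reported here.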

Additional observations from a re-analysis of the deposited data

Results flagged for a closer look

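In 92 groups of 5 libraries (the named genes, the 3 ratios and the shares, each in each line), 12 held a library far from the other 4, where chance gives about 1 in 20. In each of the 12, the gap to the nearest of the other 4 was 0.7275 or more of the range of all 5. MC38 replicate 1 accounted for 8 of the 12, MC38.T4 replicate 4 for 3 and MC38 replicate 2 for 1. The groups share genes and libraries, and all 3 of MC38.T4 replicate 4 involve Wwtr1. The count of 12 is therefore no test against the rate of 1 in 20.

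MC38.T4 replicate 4 had 63.8 FPKM of Wwtr1, against 56.7 to 58.6 FPKM in the 4 others of that line, and with it the lowest log2 ratio of Yap1 to Wwtr1 (-0.63, against -0.44 to -0.37) and the lowest share of Yap1 in the coactivator sum (39.3%, against 42.4% to 43.6%). MC38 replicate 1 was far above the other MC38 libraries for Tead4 (7.97 FPKM, against 7.12 to 7.23), Stk4 (37.8 FPKM, against 32.0 to 33.5), Strn (5.90 FPKM, against 3.86 to 4.33), Fbxw11 (73.1 FPKM, against 62.5 to 65.3), Vgll3 (30.6 FPKM, against 22.1 to 24.1), Rbms3 (0.881 FPKM, against 0.648 to 0.706) and Myof (58.2 FPKM, against 53.3 to 53.9), and far below them for Btrc (11.5 FPKM, against 13.1 to 13.4). MC38 replicate 2 stood above for F3 (35.6 FPKM, against 31.2 to 32.0). Each of these genes kept its call without MC38.T4 replicate 4 and MC38 replicate 1, and F3 kept it without MC38 replicate 2.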

How the results depend on the processing

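The 20 alternatives to the fit changed no count by over 1.5 times: of the 10 genes 9 or 10 passed (9 to 10 with 1 library left out), and of all genes between 7683 (minimum FPKM of 5) and 12725 (no filter). Of the 10 genes, 9 kept direction and call under each alternative that tested them (Tead3 was not tested at a minimum FPKM of 5). The exception was Ankrd1, which also missed the threshold without the filter on low values (adjusted p = 0.0548) and after quantile normalization (0.0589); the cause was not tested. Beside Ankrd1, Vgll4 alone among 37 single genes lost its call. Rescaling, quantile and median shifts moved the median log2 change of all tested genes to between -0.04 and -0.03. The replicate numbers did not pair the libraries: deviations of same-numbered libraries correlated between -0.13 and 0.14. With the replicate block all 10 genes passed, among 9534 of all tested genes. As pairs, the ratio differences were unchanged at 1.08 (Yap1 to Wwtr1), 0.27 (Lats2 to Lats1) and -0.44 (Ankrd1 to Amotl2), with p = 0.0625 in an exact sign-flip test, the smallest that 5 pairs can give. With 1 library left out they ranged from 1.06 to 1.12, from 0.25 to 0.29 and from -0.54 to -0.40. The difference of the Tead1 share then ranged from -19.1 to -17.1 percentage points. Depth in reads is unknown, so precision rests on the spread between libraries.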

Other observations

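Of 8675 tested genes with a promoter window, 986 (11.4%) held GGAATG or CATTCC in it. Of these 986 genes 439 rose and 447 fell in MC38.T4, with a median log2 change of -0.01. Over all 8675 genes 3775 rose and 3786 fell, with a median of -0.0059. Of the 22 signature targets 15 had a window and 7 of these held the motif.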
